A study of Mus musculus with 8 samples.

Results

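The genes described here are listed for the loop of Henle, the distal convoluted tubule and the collecting duct, the part of the kidney tubule that lies beyond the proximal tubule. They are 34 genes from a list that was chosen with earlier results of these data known. They were found on the array by matching the accession of each probe to a gene symbol, among 20887 genes named in that way. All 34 had a probe, 44 probes in all, and 31 were measured, since a gene was kept only where its probe lay well above background in at least 4 of the 8 arrays. Their RNA was compared in whole kidneys of C57BL/6 mouse embryos at embryonic day 16.5. The KO group was 4 kidney pairs in which Dot1, taken here as Dot1l, a histone H3 lysine 79 methyltransferase, was deleted in nephron progenitors that express Six2. The WT group was 4 kidney pairs labelled as wildtype or control. The Cre line, the floxed allele and whether controls carried Cre are not given in the sources used here. Each sample was labelled with Cy5 and hybridised together with Cy3-labelled RNA of the WT1 kidneys, so the values below, unless another unit is named, are log2 ratios with the sample on top and WT1 RNA below, and on the WT1 array both colours held WT1 RNA.

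The nephron, from the glomerulus to the distal tubule, forms from Six2-positive progenitors, whereas the collecting duct grows from the ureteric bud, a separate lineage. The thick ascending limb reabsorbs salt without water and dilutes the urine. The distal convoluted tubule trims sodium, calcium and magnesium, and the principal cells of the collecting duct take up sodium and water under aldosterone and vasopressin. In a whole kidney, fewer cells of a type and less RNA per cell cannot be told apart.

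The arrays were not equal in quality. The median red signal of negative-control spots was 478.25 scanner units on the KO1 array and 1361 units on the WT1 array, against 58 to 61 units elsewhere. The green signal, which comes from the same RNA on every array, correlated with that of the others at 0.904 on KO1 and 0.562 on WT1, against 0.996 to 0.997 on the 6 others (median Pearson r across probes, which are not independent). All KO arrays lay in row 2 of the slide and all WT arrays in row 1, so row and group cannot be told apart. The Y-linked gene Ddx3y had log2 ratios of 2.31 to 3.19 in the 4 KO samples and 3.29 in WT2, against -0.11 to 0.08 in the other 3 WT samples, so sex was unbalanced. The Dot1l probe differed by 0.03 ± 0.08 (SE, n = 4 per group, limma adjusted p = 0.924); its place relative to the deleted part was not analysed here, so it does not check the labels.

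Most measured genes of the loop, distal tubule and collecting duct had small log2 differences between KO and WT kidneys, and 3 stood past the threshold. Guca2b, which encodes the natriuretic peptide uroguanylin, rose 2.72-fold in KO kidneys. Slc12a2, a sodium-potassium-chloride cotransporter gene, rose 1.45-fold, and Rhbg, an ammonia transporter gene of the collecting duct and distal tubule, fell by 0.70 on the log2 scale. Of the 31 measured genes, 2 were thus higher and 1 lower at an adjusted p of 0.05 (limma, adjusted over all 13982 genes tested), or 9.68%. Over all genes, 2.15% were called, 1.61% higher and 0.544% lower. The members were chosen with earlier results of these data known, so this contrast is not a test of the set. The groups did not overlap in 4 members with higher and 2 with lower KO values; over all genes these shares were 6.82% and 2.46%, or 9.28% in either direction. An unadjusted p under 0.05 was found in 10 members and in 14.5% of all genes. In 22 of the 31 the 95% interval of the difference stayed within 0.5 log2 units of zero on either side. Small differences say less for dim probes, since the background correction added 50 units to each channel, which shrinks their log2 ratios. Slc8a1, Pvalb, Casr, Ptger3 and Mecom were such genes. On arrays 2 to 4 of each group the net red signal was 16.5 to 29 units for Slc8a1 and 28 to 83 units for Casr. Only 19 of the 31 had a probe well above background on all 8 arrays. The median difference over the members was 0.05, against 0.03 over all genes.

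The same 3 members passed without WT1 and KO1. With replicate number as a block, described under the processing, 3 members were higher and 3 lower, and the call over all genes grew to 556 of 13982. The whole-table count of 301 fell to 83 when KO4 was left out, to 141 for KO2, to 198 for KO3, to 129 for WT4, to 150 for WT2 and to 187 for WT1. With the Ddx3y ratio as a covariate no member passed in limma, 18 genes passed over the whole table, and 1948 genes had an unadjusted p under 0.05. Ddx3y was high in every KO sample and in WT2 only among WT samples. Sex and group are thus hard to tell apart in this fit, which leans on WT2. The lost calls do not show what part sex had in the differences.

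**Figure D1:**
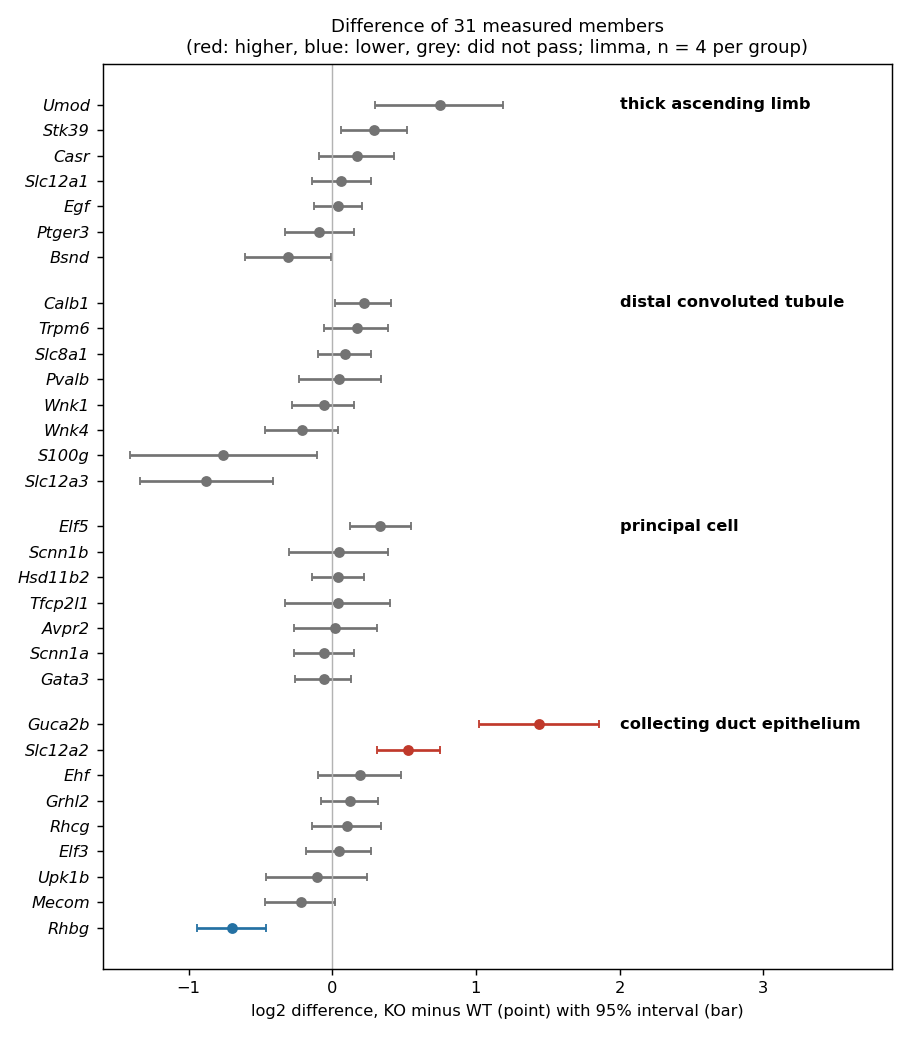
Log2 difference (KO minus WT, horizontal axis) of the 31 measured genes with its 95% interval, from limma with n = 4 per group, grouped by tubule segment. Guca2b and Slc12a2 (red) were higher and Rhbg (blue) lower; Umod at 0.75, S100g at -0.76 and Slc12a3 at -0.88 (grey) did not pass and have wide intervals.

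In the thick ascending limb, Umod, the gene of uromodulin, the most abundant protein of normal urine, had the largest difference of the 7 genes measured. Its log2 ratios were -0.13, 0.18, 0.70 and 0.16 in KO1 to KO4, against -0.14, -0.76, -0.19 and -0.99 in WT1 to WT4. The groups did not overlap, but KO1 and WT1 lay 0.01 apart. The difference was 0.75 ± 0.20 (SE; 95% interval 0.30 to 1.19; limma adjusted p = 0.0886), and with replicate number as a block the adjusted p was 0.0284. It was 0.0491 without KO1, where the difference was 0.87. Umod passed in 4 of the 23 alternative settings described under the processing. Net red signals of Umod, before any normalization, were 1432.5, 1279 and 1302.5 units on KO2 to KO4, against 693, 980 and 748 units on WT2 to WT4.

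KO3 was the highest KO sample and WT4 the lowest WT sample both for Umod and for a list of proximal tubule genes. The WT samples had the same order in both, from WT1 through WT3 and WT2 to WT4. The order of the other KO samples differed between Umod and the list. The median log2 ratio of 17 proximal tubule genes was -0.07, -0.11, 0.71 and 0.23 in KO1 to KO4, against -0.05, -0.32, -0.23 and -0.94 in WT1 to WT4, and none of the 17 passed. All 17 had a positive difference, with a median of 0.53. By limma, 12 of them had an unadjusted p under 0.05, against 14.5% of all genes. The part of this shift in the Umod difference was not tested.

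The promoter of Umod is shown because Umod and Slc12a3, segment markers of neighbouring parts of the same tubule, had differences of opposite sign. The letters are the 250 bases before the annotated start in RefSeq on GRCm38.p6, at chr7:119479263-119479512 on the minus strand, in lower case 5′ to 3′, with any searched motif in capitals.
Umod: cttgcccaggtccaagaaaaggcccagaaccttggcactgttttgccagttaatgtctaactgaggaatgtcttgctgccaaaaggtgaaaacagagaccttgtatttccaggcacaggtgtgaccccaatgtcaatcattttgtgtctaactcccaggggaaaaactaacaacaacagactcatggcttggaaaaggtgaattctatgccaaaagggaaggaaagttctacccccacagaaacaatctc

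Of the other loop genes, none passed. Stk39, the kinase SPAK that activates the salt cotransporters of the thick limb and distal tubule, had log2 ratios of 0.24, 0.00, -0.07 and 0.15 in KO, against -0.29, -0.36, 0.02 and -0.21 in WT. KO2 and KO3 lay below WT3, so the groups overlapped, and the difference was 0.29 ± 0.11 (limma adjusted p = 0.21). Bsnd, the barttin subunit of the basolateral chloride channels, had -0.65, -0.63, -0.29 and -0.63 in KO, against 0.12, -0.50, -0.14 and -0.43 in WT. KO3 stood above the other KO samples and overlapped WT, and the difference was -0.31 ± 0.14 (limma adjusted p = 0.317).

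Slc12a1, the apical sodium-potassium-chloride cotransporter NKCC2 that defines the thick limb, differed by 0.06 ± 0.09, with a 95% interval of -0.14 to 0.27. Egf, a growth factor made in the thick limb and distal tubule, differed by 0.04 ± 0.08, Casr, the calcium-sensing receptor gene, by 0.17 ± 0.12, and Ptger3, a prostaglandin E receptor gene, by -0.09 ± 0.11. The interval of Slc12a1 thus excludes a change as large as the Umod difference of 0.75 in these samples. The median over the 7 genes was 0.06.

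In the distal convoluted tubule, Slc12a3, the thiazide-sensitive sodium-chloride cotransporter gene that defines the segment, had the largest difference of all members in the downward direction. Its log2 ratios were -0.71, -1.75, -0.92 and -1.32 in KO, against 0.20, -0.47, -0.29 and -0.63 in WT. Every KO value lay below every WT value, though KO1 and WT4 were close. The difference was -0.88 ± 0.22 (95% interval -1.34 to -0.41; limma adjusted p = 0.0588), with an adjusted p of 0.00355 with replicate number as a block, where KO minus WT was -0.91, -1.27, -0.63 and -0.69 in the 4 pairs. It was 0.0237 without KO1, with a difference of -1.03. Slc12a3 passed in 4 of the 23 alternative settings. Net red signals were 53, 99.5 and 123 units on KO2 to KO4, against 263, 273 and 262 units on WT2 to WT4. The background correction added an offset of 50 units to each channel, which makes log2 ratios of a probe this dim smaller than those of the net signals. With the scanner software's own ratios, which have no such offset, the difference was -1.51 (limma adjusted p = 0.0995). With the red channel alone it was -1.67 (limma adjusted p = 0.887). That setting keeps the offset, so it does not show the size without it. It also keeps the WT1 array, where the net red signal of Slc12a3 was 15264 units.

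The Slc12a3 promoter, on the plus strand at chr8:94328958-94329207 of GRCm38.p6, holds a TATA box, in capitals, that starts 32 bases before the annotated start.
Slc12a3: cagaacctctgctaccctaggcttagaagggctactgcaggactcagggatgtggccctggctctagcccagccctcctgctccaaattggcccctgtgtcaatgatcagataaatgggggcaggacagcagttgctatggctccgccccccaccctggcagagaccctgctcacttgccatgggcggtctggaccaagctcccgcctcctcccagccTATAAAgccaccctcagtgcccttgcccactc

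S100g, the gene of the small intracellular calcium carrier calbindin-D9k, spread more widely within each group than any other member. It had log2 ratios of -1.63, -2.00, -0.66 and -1.70 in KO, against -0.39, -0.93, -0.15 and -1.48 in WT. KO3 was far above the other KO samples and WT4 far below the other WT samples, so the groups overlapped. The difference was -0.76 ± 0.30 (limma adjusted p = 0.25), and -0.72 at a second probe. KO minus WT was -1.23, -1.08, -0.52 and -0.22 in the pairs of replicates 1 to 4, and with replicate number as a block the adjusted p was 0.0209. With that block and without WT1 and KO1, the pair with the widest difference, S100g did not pass, at -0.60 (limma adjusted p = 0.073).

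Calb1, the gene of the larger calcium carrier calbindin-D28k, had a difference of opposite sign to S100g, at a dim probe well above background on 6 arrays only. Its log2 ratios were 0.10, -0.09, -0.10 and 0.15 in KO, against -0.09, -0.28, -0.23 and -0.20 in WT, a difference of 0.22 ± 0.09 (limma adjusted p = 0.286). Net red signals of Calb1 were 50, 38.5 and 93 units on KO2 to KO4, against 37.5, 51 and 74 units on WT2 to WT4. At such signals the offset of 50 units makes log2 ratios smaller than those of the net signals, by an amount not estimated here. The difference between Calb1 and S100g was not tested. Wnk4 and Wnk1, kinases that act upstream of Stk39, differed by -0.21 ± 0.12 and -0.06 ± 0.10. Trpm6, the apical magnesium channel gene, differed by 0.17 ± 0.10, Slc8a1, a sodium-calcium exchanger gene, by 0.09 ± 0.09, and Pvalb, the gene of the calcium buffer parvalbumin, by 0.05 ± 0.13. Pvalb was well above background on 5 arrays only. Trpv5, the apical calcium channel gene, was not kept: its probe was well above background in 0 KO and 2 WT arrays. The median over the 8 measured genes was -0.01. Slc12a3, S100g, Wnk4 and Wnk1, which were well above background on all 8 arrays, had negative differences. With only such genes kept, the median was -0.49, from Slc12a3 at -0.88, S100g at -0.76, Wnk4 at -0.21 and Wnk1 at -0.06. None of them passed. Calb1, Trpm6, Slc8a1 and Pvalb had positive differences and were well above background on 5 to 7 arrays.

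**Figure D2:**
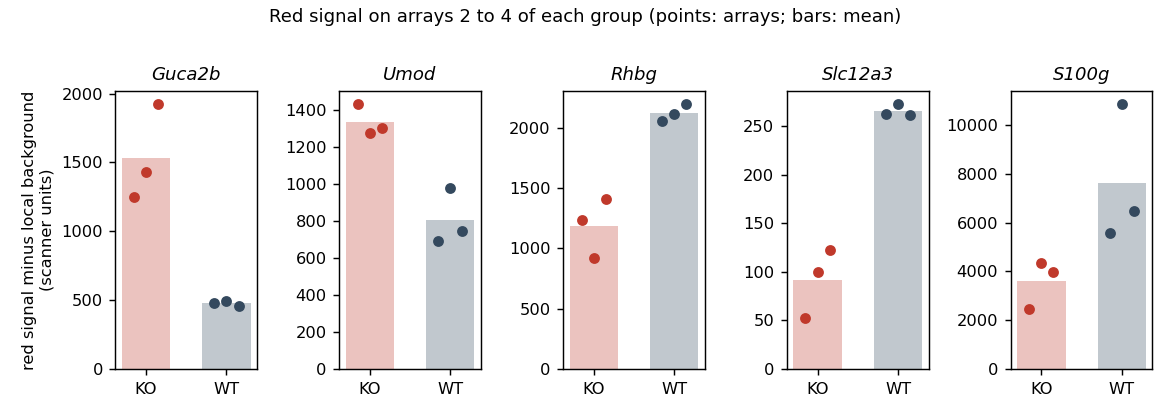
Red (sample) signal minus local background in scanner units, not normalized, for the 5 members with the largest differences on arrays 2 to 4 of each group; points are arrays and bars their mean, and KO1 and WT1 are left out for their high background. Slc12a3 lay at 53 to 123 units in KO, against 262 to 273 units in WT, and Guca2b at 1248 to 1923 units in KO, against 459 to 491 units in WT.

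None of the 7 measured principal cell genes passed. Elf5, an ETS-family transcription factor gene of the principal cell lineage, had the lowest p. Its log2 ratios were 0.28, 0.29, 0.30 and 0.41 in KO, against 0.01, -0.10, 0.24 and -0.18 in WT. The KO samples lay close together and above every WT sample, the nearest being WT3. The difference was 0.33 ± 0.10 (95% interval 0.12 to 0.55; limma adjusted p = 0.121), and without WT3 it was 0.41 with an adjusted p of 0.0452. Elf5 did not pass in the other 22 of the 23 alternative settings described under the processing.

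The other members of this group had differences close to zero at the probe that stood for the gene. Gata3, a transcription factor gene needed for ureteric bud growth, had -0.19, -0.17, -0.30 and 0.04 in KO, against -0.01, -0.07, -0.15 and -0.13 in WT, a difference of -0.06 ± 0.09 (limma adjusted p = 0.82). Scnn1a, the alpha subunit of the epithelial sodium channel, had -0.32, -0.17, -0.44 and -0.30 in KO, against -0.09, -0.42, -0.16 and -0.32 in WT, a difference of -0.06 ± 0.10 (limma adjusted p = 0.845). In both genes the groups lay across each other. Scnn1b, the beta subunit, differed by 0.05 ± 0.16. Hsd11b2, which inactivates glucocorticoids and so keeps the mineralocorticoid receptor selective for aldosterone, differed by 0.04 ± 0.08, with an interval of -0.14 to 0.22. Avpr2, the vasopressin receptor gene, differed by 0.02 ± 0.13. Scnn1g, the gamma subunit, and Nr3c2, the mineralocorticoid receptor, were not kept, with 0 and 2 arrays well above background. The median over the 7 measured genes was 0.04.

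Tfcp2l1, a transcription factor gene that patterns the collecting duct, gave different values at its probes. The brighter probe, which stood for the gene, had -0.39, 0.00, 0.42 and -0.08 in KO, against -0.05, 0.11, 0.19 and -0.43 in WT, a difference of 0.04 ± 0.17. The second probe had -0.21, -0.19, 0.20 and -0.18 in KO, against -0.38, -0.56, -0.29 and -0.56 in WT. There the groups did not overlap, and the difference was 0.35 ± 0.11 (limma adjusted p = 0.219 with every kept probe tested). Of 9 members with 2 kept probes, 7 had the same sign at both, and Tfcp2l1 had the widest gap, at 0.31.

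Of the 9 members grouped under the collecting duct epithelium, 2 rose and 1 fell. The kidney cells that held their RNA were not identified here. Guca2b had log2 ratios of 0.97, 1.31, 1.99 and 1.86 in KO, against 0.13, 0.27, 0.14 and -0.17 in WT. Every KO sample lay well above every WT sample. The difference was 1.44 ± 0.19 (95% interval 1.02 to 1.86; limma adjusted p = 0.00336). Net red signals were 1248, 1428 and 1923 units on KO2 to KO4, against 480, 491 and 459 units on WT2 to WT4, and the probe was well above background on all 8 arrays. Uroguanylin activates guanylate cyclase C and promotes salt excretion, and the gut is its main source. With Ddx3y as a covariate the difference was 1.16 (adjusted p = 0.0954). The KO samples ranked for Guca2b with KO3 highest and KO1 lowest; the proximal tubule list, given above, also had KO3 highest, and its part in the Guca2b difference was not tested.

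The promoter of Guca2b, the member with the largest difference, lies at chr4:119658946-119659195 of GRCm38.p6 on the minus strand.
Guca2b: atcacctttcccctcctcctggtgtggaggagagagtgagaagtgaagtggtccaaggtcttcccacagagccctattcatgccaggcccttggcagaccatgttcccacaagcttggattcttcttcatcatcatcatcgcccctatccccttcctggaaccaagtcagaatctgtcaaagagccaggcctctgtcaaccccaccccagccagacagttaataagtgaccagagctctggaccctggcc

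The promoters of 25 members, 29 sequences, were searched on both strands for the TATA box TATAAA, the GRHL and TFCP2L1 motif AACCNGTT, the ETS motif ACCGGAAGT, the ERR motif TCAAGGTCA and, in their full palindromic forms, the HNF1 motif and the GR and MR motif. None of these holds the letters of another. The TATA box was found in 4 of the 29, those of Avpr2, Slc12a3, Tfcp2l1 and Trpv5, and in 12.4% of 32851 promoters of the same length. The GRHL and TFCP2L1 motif, of interest because both factors are members, was in 0 of the 29 and in 1.79% of all. The ETS motif, which Ehf, Elf3 and Elf5 may read, was in that of Egf only and in 0.804% of all, and the ERR motif in 0 and 0.387%. The HNF1 motif and the GR and MR motif were in 0 of the 29 and each in 0.00913% of all. These are matches of letters and not sites of binding.

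Rhbg had log2 ratios of -0.90, -0.77, -0.55 and -0.79 in KO, against 0.06, 0.02, 0.05 and -0.34 in WT. Every KO value lay below every WT value, and WT4 stood apart from the other 3 WT samples. The difference was -0.70 ± 0.11 (95% interval -0.94 to -0.46; limma adjusted p = 0.00843), and -0.80 with Ddx3y as a covariate (adjusted p = 0.0782). Net red signals were 1239, 924 and 1408 units on KO2 to KO4, against 2061.5, 2113 and 2198 units on WT2 to WT4. Rhcg, the ammonia transporter gene of the apical and basolateral membrane of the same cells, had a bright probe and differed by 0.10 ± 0.11, with an interval of -0.14 to 0.34. The intervals of Rhbg and Rhcg do not overlap, though the difference between the genes was not tested. Of 13 intercalated cell genes, 2 rose and none fell, with a median of 0.01. Over all genes 1.61% rose and 0.544% fell, and these calls were lost in many settings, given below. The median log2 ratio of these 13 genes was -0.11, -0.07, 0.19 and -0.07 in KO1 to KO4, against 0.04, -0.26, -0.01 and -0.33 in WT1 to WT4.

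Slc12a2, the basolateral cotransporter NKCC1, which many secretory epithelia and other cell types use, had 0.05, 0.17, 0.40 and 0.21 in KO, against -0.32, -0.34, -0.16 and -0.49 in WT. The groups did not overlap. Before normalization they did: net red signals were 1933, 1377 and 2128.5 units on KO2 to KO4, against 1554, 1631.5 and 1903 units on WT2 to WT4. The log2 difference was 0.53 ± 0.10 (95% interval 0.31 to 0.75; limma adjusted p = 0.019). The call was lost when any of 4 samples was left out, with adjusted p of 0.0508 without KO2, 0.0722 without KO4, 0.0528 without WT2 and 0.0616 without WT4, while the difference lay between 0.48 and 0.55 in these. It was also lost with the software's ratios, at 0.50 (limma adjusted p = 0.099), and with the red channel alone without WT1 and KO1, at 0.30 (limma adjusted p = 0.192). In the same samples 5 of 10 stromal genes rose, and the median log2 ratio of that list was 0.24 to 0.51 in KO, against -0.14 to 0.02 in WT. Macrophage genes behaved likewise: 5 of 9 rose, and the list's median log2 ratio was 0.21 to 0.38 in KO, against -0.17 to -0.06 in WT. Of 12 nephron progenitor genes 6 fell. Six2, Meox1, Osr1, Eya1, Gdnf and Crym did not pass, with differences of -0.21, -0.37, -0.06, 0.21, 0.08 and 0.23. Of 2 measured adrenal and sympathetic genes none passed. Over all genes 1.61% rose and 0.544% fell, and these lists were chosen with earlier results of these data known. The part of these cell types in the Slc12a2 difference was not tested.

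The remaining epithelial genes did not pass. Mecom, a transcription factor gene, differed by -0.22 ± 0.11 and by 0.03 at a second, dimmer probe. Ehf and Elf3, epithelial ETS factor genes, differed by 0.19 ± 0.13 and 0.05 ± 0.11, and Grhl2, which controls epithelial junction genes, by 0.12 ± 0.09, against -0.10 at its second probe. Upk1b, a uroplakin gene of the urothelium that lines the renal pelvis, differed by -0.11 ± 0.16. Of 7 further urothelial genes measured none passed, with a median of 0.04. The median over the 9 epithelial members was 0.10.

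**Figure D3:**
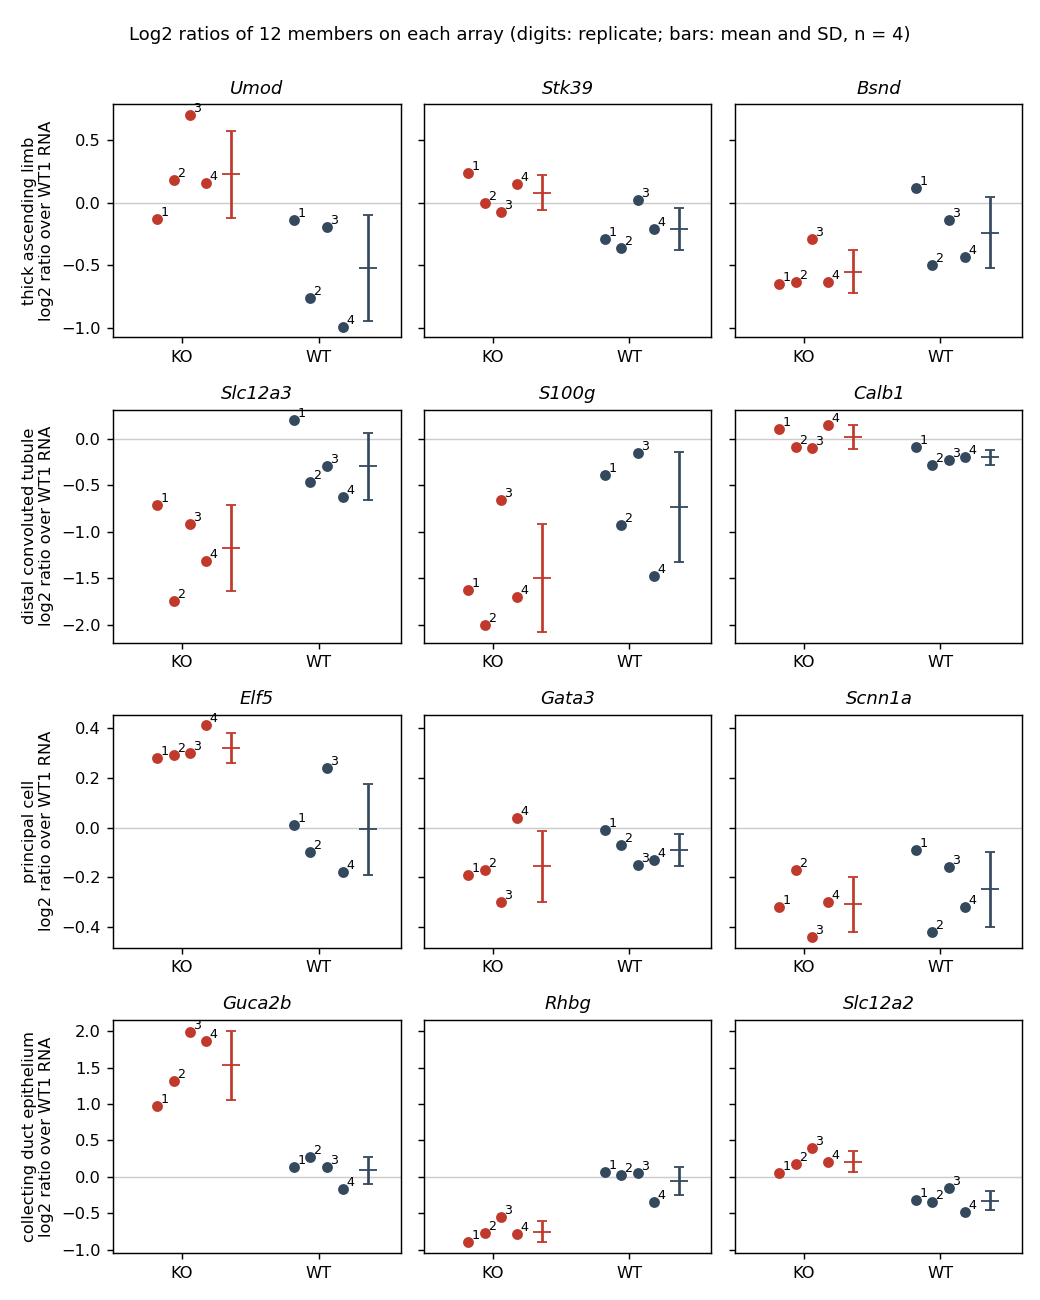
Log2 ratio over WT1 RNA (vertical axis, scaled per row) on every array for the 3 members with the smallest p in each segment; digits are replicate numbers and bars the mean and SD (n = 4). KO and WT samples do not overlap for Umod, Slc12a3, Elf5, Guca2b, Rhbg and Slc12a2, and S100g has KO3 at -0.66 and WT4 at -1.48 inside the other group's range.

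Further genes of these segments were read from a list apart from the members. Of 31 more loop and distal tubule genes measured, 3 fell, 1 rose and 21 had a negative difference, with a median of -0.13. Over all genes 0.544% fell, 1.61% rose and 5687 of 13982 had a negative difference. With the red channel alone that median was 0.11, on a scale on which the median of all genes was 0.23. Emx1 and Sim2, transcription factor genes, fell by 0.92 and 0.73 on the log2 scale (limma adjusted p = 0.0032 and 0.0189). The potassium channel genes Kcnj10 and Kcnj16, whose products form a joint channel in the distal tubule, moved apart, by -0.55 ± 0.13 and 0.67 ± 0.13 (limma adjusted p = 0.0465 and 0.0242). Cldn16, the claudin of magnesium and calcium passage in the thick limb, differed by -0.57 ± 0.14 and Esrrb by -0.55 ± 0.14, and neither passed (limma adjusted p = 0.0539 and 0.0686). Without WT1 and KO1, 2 of the 31 fell and none rose, and with replicate number as a block 6 fell and 1 rose. Only 1 fell and none rose when KO2, KO4 or WT1 was left out or with the software's ratios, and none passed with Ddx3y, median centring or the red channel alone.

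Of 30 more collecting duct genes measured, 2 rose, none fell and 24 had a positive difference, with a median of 0.20. Those that rose were Fxyd4, a regulator of the sodium pump, at 0.79 ± 0.16 (limma adjusted p = 0.0268), and the keratin gene Krt19 at 0.54 ± 0.12 (limma adjusted p = 0.0386). Over all genes 1.61% rose, 0.544% fell and 8295 of 13982 had a positive difference, with a median of 0.03. The list was chosen with earlier results of these data known. Aqp2, the vasopressin-regulated water channel of principal cells, differed by 0.37 ± 0.38 (limma adjusted p = 0.733). Among intercalated cell genes Slc26a4, the chloride-bicarbonate exchanger pendrin, rose by 0.76 ± 0.17 and Car2, a carbonic anhydrase gene also active elsewhere in the tubule, by 0.51 ± 0.12 (limma adjusted p = 0.0444 and 0.0462). The groups overlapped for Slc26a4, with KO1 at 0.20 and WT3 at 0.25. The calls in both lists were lost when most single samples were left out. Of the 30 collecting duct genes, none rose when any of KO2, KO3, KO4, WT1, WT2 or WT4 was left out, and 1 fell without KO4. None rose either with the software's ratios, every kept probe tested, Ddx3y, median centring or the red channel alone, while 1 rose without both WT1 and KO1 and 3 rose with replicate number as a block. Of the 13 intercalated cell genes, none rose without KO3, KO4, WT1, WT2 or WT4, and 1 rose without KO1, without KO2 or without both WT1 and KO1. None of the 13 rose with the software's ratios, no background correction, no filter on dim probes, every kept probe tested, Ddx3y, median centring or the red channel alone.

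The members varied between samples of the same group as well as between groups. KO3 was the highest KO sample in 16 of 31 members, WT4 the lowest WT sample in 16 of 31 and WT1 the highest WT sample in 14 of 31. Over all genes these samples held those places in 31.2%, 18.5% and 16.2% of genes. WT1 was also the array with the highest background. Median log2 ratios of the 7 thick limb genes were -0.12, -0.14, -0.01 and -0.01 in KO1 to KO4, against -0.10, -0.48, -0.06 and -0.22 in WT1 to WT4. For the 9 collecting duct epithelial genes they were -0.11, 0.02, 0.13 and 0.12 in KO, against 0.06, 0.02, 0.05 and -0.17 in WT. In each of these sets the KO and WT samples overlapped.

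**Figure D4:**
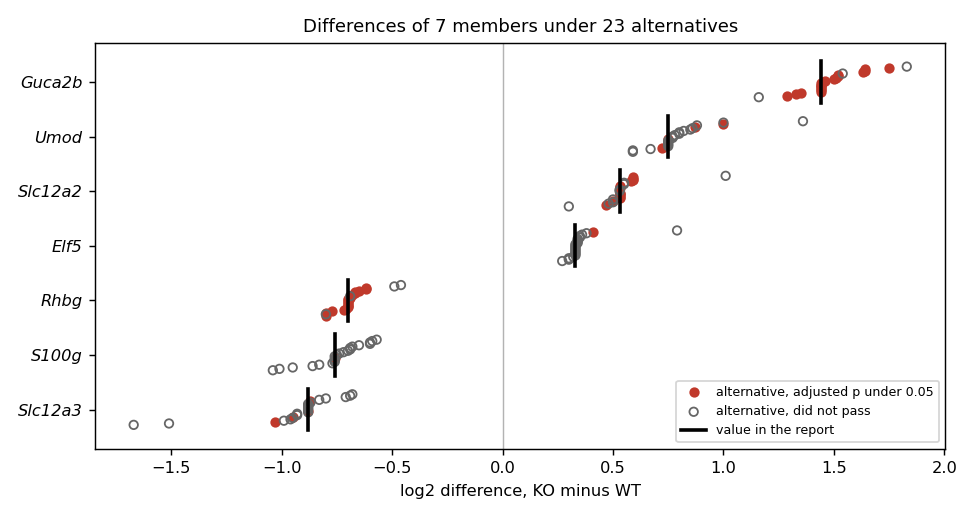
Log2 difference (KO minus WT, horizontal axis) of 7 members under 23 alternative settings; filled points passed an adjusted p of 0.05, open points did not, and the black line is the value in the text. No point crosses zero, and the range was 1.16 to 1.83 for Guca2b, -0.80 to -0.46 for Rhbg and -1.67 to -0.68 for Slc12a3.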

How the data were processed

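Per the file headers, the deposited intensity columns hold, for each colour, the spot median and the local background median from Agilent Feature Extraction 10.7.3.1, on a linear scale and not normalized. The deposited log10 ratio is processed red over processed green; the deposited table of the whole series repeats these log10 ratios with a largest gap of 0.497% and has column medians of 0. Other deposited columns are flags of 0 or 1, among them those for spots well above background. In R 4.3.3 with limma 3.58.1, signals were background-corrected by normexp (offset 50) and normalized by loess within arrays, control spots having weight 0. Outlier readings (1765, or 0.372%) were left out, no spot was saturated, and replicate spots were averaged per probe. Kept probes lay well above red background on at least 4 of 8 arrays, in a share of at least 0.5 of their spots. Of 55681 probes, 27509 matched a RefSeq symbol of GRCm38.p6, used for names because the headers give mm9. Each gene was read from its brightest kept probe. Differences were tested over 13982 genes with lmFit and eBayes on log2 ratios, with Benjamini-Hochberg adjustment. SE is moderated. Precision is limited by having 8 arrays.

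The members and lists were chosen with earlier results of these data known. Of the genes listed beside the members, 3 were not matched. Values on every array are given for members that passed and for the 3 with the smallest p in each segment; further list genes are named where they passed, up to 4 a list. Tfcp2l1 with its probes, Cldn16, Esrrb and Aqp2 were named after their values were seen. Groups and replicate numbers came from the labels, and the design text calls the samples biological replicates. Samples of the same number lay in the same slide column and deviated together from their group means (r across genes = 0.14, 0.37, 0.26 and 0.30 for numbers 1 to 4), so the block by number is given where it changes a call. This pairing comes from the data, and other pairs, such as KO1 with WT4 (0.37), correlated as well. The fit was first tested on simulated data.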

Additional observations from a re-analysis of the deposited data

Results flagged for a closer look

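In 5 of 62 groups of 4 samples, 1 sample lay far from the other 3, and chance alone marks about 1 in 20 such groups. For Rhbg, WT4 was at -0.34 and the other WT samples at 0.02 to 0.06. For Bsnd, KO3 was at -0.29 and the other KO samples at -0.65 to -0.63. For Elf5, KO4 was at 0.41 and the other KO samples at 0.28 to 0.30. For Hsd11b2, WT3 was at 0.17 and the other WT samples at -0.02 to 0.00, and for Slc12a1, WT2 was at -0.56 and the others at -0.26 to -0.22. All values are log2 ratios over WT1 RNA.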

How the results depend on the processing

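Across 23 settings, 641 of 701 member differences kept their sign and their side of the threshold. Most of these belonged to members that had no call to lose, so the share does not measure how stable the calls were. A call was lost 16 times, in 3 of 23 settings for Guca2b, 4 for Rhbg and 9 for Slc12a2. In 10 cases a call was gained, and no called member changed sign. A sign change without a call occurred 34 times, in 14 members of differences up to 0.22. The 301 genes called became 123 with the software's ratios, 454 with array weights, 556 with the replicate block, 520 with the block and without WT1 and KO1, 18 with Ddx3y as a covariate, 141 with the red channel alone without WT1 and KO1 (chosen after seeing the data), 1 with the red channel alone and 0 with median centring; by limma, the red channel alone had 109 genes, and median centring 178, with unadjusted p below 0.05. Members higher in KO, 2 in the report, were 3 with array weights and with the replicate block, 1 with the software's ratios and with the red channel without WT1 and KO1, and 0 with median centring, the red channel alone or Ddx3y. Members lower, 1 in the report, were 2 with array weights, 3 with the replicate block, 2 with the block without WT1 and KO1, and 0 with median centring, Ddx3y or either red channel setting. The causes were not tested. The median of the distal convoluted tubule genes was -0.49 above background on all arrays, where fewer genes are tested, and -0.19 with Ddx3y or the red channel; that of the thick limb was 0.26 with Ddx3y, and the red channel gave 0.37 for principal cells and 0.28 for the collecting duct epithelium, where all genes had a median of 0.23. With each sample left out in turn, the genes called were 83 to 345, members higher 1 to 3 and members lower 1 to 2, and the medians were 0.01 to 0.10 (thick limb), -0.05 to 0.03 (distal tubule), -0.08 to 0.07 (principal cell) and 0.05 to 0.16 (epithelium). Aquantile leaves ratios as they are. Probes near background, such as Slc12a3 in KO, have the least certain size.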
